A study of Mus musculus with 12 samples.

Results

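Dominant mutations in several genes for cytosolic aminoacyl-tRNA synthetases, the enzymes that load each tRNA with its amino acid, cause Charcot-Marie-Tooth disease or closely related motor neuropathies in people. The genes followed here are the 6 mouse genes of this group named Gars (glycine), Aars (alanine), Hars (histidine), Mars (methionine), Wars (tryptophan) and Yars (tyrosine). They were taken by symbol from tables of 38924 genes. Each symbol named 1 gene, and all 6 were among the 17980 genes with enough reads to be tested.

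Whole spinal cord RNA of 12 mice aged 8 weeks was compared. P278KY mice, heterozygous for a Gars allele in which a proline is replaced by lysine and tyrosine, were 3 females (mice 3, 4 and 9) and 3 males (mice 6, 7 and 8). Wild-type (WT) mice were 3 females (mice 1, 2 and 10) and 3 males (mice 5, 11 and 12). The labels give the background B6J;CAST for every mouse, so both genotypes carry the same mixed strain designation, and they do not say which mice were littermates. The allele is carried in every cell type, whole cord mixes neurons and glia, and the counts pool the mutant and WT alleles of Gars. In such bulk tissue, fewer cells of a type and less RNA per cell cannot be told apart.

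Synthetases fall into class I (here Mars, Wars and Yars) and class II (Gars, Aars and Hars), which differ in the fold of the catalytic domain. Uncharged tRNA is sensed by the kinase GCN2, which phosphorylates the initiation factor eIF2α, and this integrated stress response increases translation of the transcription factor ATF4. ATF4 is known to activate genes of amino acid supply, many cytosolic synthetases among them, through composite sites shared with C/EBP proteins. In mice with Gars mutations this response has been described in motor neurons and some sensory neurons.

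The sites read by ATF4 with C/EBP share the core TGATGNAA, which was searched on both strands of the RefSeq promoter windows (GRCm38.p6, 250 bases before to 50 bases after a gene's start). Windows were matched for 4 of the 6 genes, Gars, Aars, Yars and Mars, and 3 of these held the core (75.0%), all but Mars. Among all cytosolic synthetases with a window the core was in 5 of 13 (38.5%), which are Gars, Aars, Yars, Iars and Tars. It was in 1304 of 32851 mouse windows (3.97%). The stretches from 120 bases before the start to the first 20 bases of the transcript are printed here because they hold every match found in the 4 windows, with the core in capitals. They lie at chr6:55037881-55038020 (plus strand) for Gars, chr8:111033722-111033861 (plus) for Aars, chr4:129189783-129189922 (plus) for Yars and chr10:127311767-127311906 (minus) for Mars, and all read 5′ to 3′ along the gene.
Gars: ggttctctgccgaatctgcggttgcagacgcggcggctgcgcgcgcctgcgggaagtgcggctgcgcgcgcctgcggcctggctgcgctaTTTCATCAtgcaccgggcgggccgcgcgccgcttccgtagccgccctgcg
Aars: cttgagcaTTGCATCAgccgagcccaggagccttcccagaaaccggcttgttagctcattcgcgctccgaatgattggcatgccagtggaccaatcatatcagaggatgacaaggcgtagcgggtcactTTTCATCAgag
Yars: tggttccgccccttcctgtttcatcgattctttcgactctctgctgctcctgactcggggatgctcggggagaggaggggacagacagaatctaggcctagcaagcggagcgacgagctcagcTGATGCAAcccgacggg
Mars: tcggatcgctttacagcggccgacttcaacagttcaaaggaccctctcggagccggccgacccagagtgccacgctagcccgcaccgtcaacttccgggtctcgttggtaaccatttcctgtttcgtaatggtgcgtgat
The Gars match starts 30 bases before the transcript start and reads TGATGAAA on the opposite strand. Aars has a match starting 112 bases before the start (TGATGCAA, opposite strand) and another at base 10 of the transcript (TGATGAAA, opposite strand). The Yars match, TGATGCAA on the gene's own strand, begins at base 4 of the transcript. These positions hold for the 1 RefSeq start of each window, which for Gars, Aars and Yars is not the gene start given below. A match is a description of the letters and not evidence of binding.

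In P278KY cord, transcripts of Mars, Wars and Gars were modestly more abundant than in WT cord, by 1.155-fold, 1.147-fold and 1.092-fold. Yars and Aars had positive fitted changes that did not pass the test, and Hars had a small negative one. Thus 3 of the 6 genes rose and none fell (edgeR quasi-likelihood F test, adjusted over all genes, threshold 0.05). Over all tested genes, 425 of 17980 (2.36%) were higher in P278KY and 531 (2.95%) were lower. The median log2 change was 0.14 over the 6 genes and -0.0031 over all tested genes.

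In every P278KY mouse the level of Mars, Wars and Gars was above that of every WT mouse. Such a separation was seen in 311 of the 17980 genes (1.73%). For Yars, 4 of 6 P278KY mice lay above all WT mice, for Aars 2 did, and for Hars none did. Levels within a gene are given in CPM (reads per 1e+06 reads), scaled between libraries by the trimmed mean of M values.

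**Figure D1:**
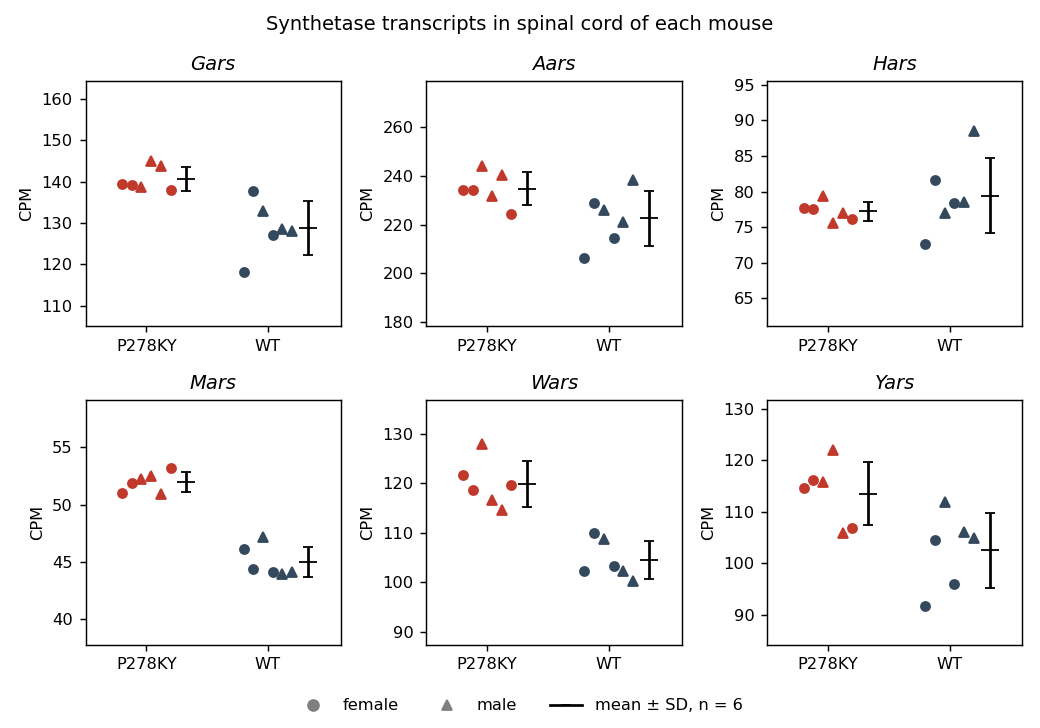
Transcript level (CPM) of each synthetase gene in each mouse, P278KY left of WT, with circles for females, triangles for males and bars for the mean ± SD (n = 6). The axes do not start at 0. P278KY and WT values do not overlap for Gars, Mars and Wars, and overlap for Aars, Hars and Yars.

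Gars encodes glycyl-tRNA synthetase, and 1 gene supplies both the cytosol and the mitochondria. Gars (ENSMUSG00000029777, chromosome 6, 55038007 to 55079500 in GRCm38) ranged over 138 to 145 CPM in P278KY mice (median 139.3) and over 118.2 to 137.8 CPM in WT mice (median 128.3). The P278KY mice were thus closely grouped, while WT female 1 was low and WT female 2 lay just under the lowest P278KY mouse. The log2 change was 0.13 (SE 0.03, 95% interval 0.05 to 0.20, adjusted p = 0.046), with all 6 P278KY mice higher. It stood at rank 875 of the 956 genes that passed. This call lay close to the threshold. It was lost in 10 of the 12 fits that left out 1 library, with adjusted p-values up to 0.109. It was kept without WT female 1 (log2 change 0.10) or WT female 2 (0.15), the lowest and highest changes of the 12 fits. Without mice 7, 10 and 11 the log2 change was 0.11 (adjusted p = 0.277).

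Aars encodes alanyl-tRNA synthetase, an enzyme with an editing domain that clears mischarged serine. Aars (ENSMUSG00000031960, chromosome 8, 111033144 to 111057664) ranged over 224.4 to 244 CPM in P278KY mice (median 234.4) and over 206.2 to 238.5 CPM in WT mice (median 223.5). The groups overlapped, with WT male 12, WT female 2 and WT male 5 inside the P278KY range. The log2 change was 0.08 (SE 0.03, 95% interval 0.01 to 0.15, adjusted p = 0.191), so the difference did not pass. In GENCODE M21 the gene Exosc6 lies within Aars on the same strand, over 1326 bases. Exosc6 was not analysed here, and whether its reads add to the Aars count was not tested.

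Hars encodes histidyl-tRNA synthetase. Hars (ENSMUSG00000001380, chromosome 18, 36766528 to 36783205, minus strand) ranged over 75.51 to 79.42 CPM in P278KY mice (median 77.27) and over 72.69 to 88.51 CPM in WT mice (median 78.48). All P278KY values lay inside the WT range, which WT female 1 and WT male 12 set. The log2 change was -0.04 (SE 0.04, 95% interval -0.13 to 0.05, adjusted p = 0.633). Hars2, the gene of the mitochondrial enzyme, starts beside it on the other strand with an overlap of 198 bases. Hars2 averaged 22.9 CPM in P278KY and 21.4 CPM in WT cord (log2 change 0.10, SE 0.04, adjusted p = 0.171).

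Mars encodes methionyl-tRNA synthetase, which sits in the multi-synthetase complex and also charges the initiator tRNA. Mars (ENSMUSG00000040354, chromosome 10, 127296221 to 127311786, minus strand) ranged over 50.96 to 53.16 CPM in P278KY mice (median 52.06) and over 43.99 to 47.16 CPM in WT mice (median 44.27). The gap between the lowest P278KY and the highest WT mouse was wider than the range within either group. The log2 change was 0.21 (SE 0.03, 95% interval 0.14 to 0.27, adjusted p = 0.00178), at rank 108. It passed in each of the 12 fits that left out 1 library, and without mice 7, 10 and 11 it missed the threshold (0.19, adjusted p = 0.0535).

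Mars lies end to end with Ddit3, the gene of the stress-response factor CHOP and itself a known ATF4 target, on the opposite strand with an overlap of 68 bases. Ddit3 averaged 22.2 CPM in P278KY and 17.2 CPM in WT cord (log2 change 0.37, SE 0.06, adjusted p = 0.00212). The library kit is stranded, but the strand setting of the counting is not given in the sources used here. Whether reads of the overlap were counted for both genes was not tested.

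Wars encodes tryptophanyl-tRNA synthetase, also known as an interferon-inducible gene in human cells. Wars (ENSMUSG00000021266, chromosome 12, 108860030 to 108894174, minus strand) ranged over 114.6 to 127.9 CPM in P278KY mice (median 119.2) and over 100.3 to 109.9 CPM in WT mice (median 102.9). The groups were apart, with P278KY male 6 the highest mouse. The log2 change was 0.20 (SE 0.03, 95% interval 0.13 to 0.27, adjusted p = 0.00465), at rank 211. It passed in each of the 12 fits that left out 1 library, and without mice 7, 10 and 11 it did not (0.19, adjusted p = 0.0754). In GENCODE M21, Wdr25 (544 bases) and 5033424D13Rik (648 bases) overlap Wars on the opposite strand, and Gm22079 (106 bases) does on the same strand. Whether their reads add to the Wars count was not tested.

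Yars encodes tyrosyl-tRNA synthetase. Yars (ENSMUSG00000028811, chromosome 4, 129189760 to 129219607) ranged over 105.8 to 121.9 CPM in P278KY mice (median 115.2) and over 91.77 to 111.8 CPM in WT mice (median 104.6). The overlap came from P278KY female 9 and P278KY male 8, which lay below WT male 5. The log2 change was 0.15 (SE 0.04, 95% interval 0.05 to 0.25, adjusted p = 0.0744). This value is larger than that of Gars with a wider spread. Of the 12 fits that left out 1 library, Yars passed in 1, that without P278KY male 8 (0.18, adjusted p = 0.0291). The highest adjusted p of these fits was 0.166, without P278KY male 7. In GENCODE M21 the gene C77080 overlaps Yars by 30 bases on the opposite strand, and whether its reads add to the Yars count was not tested.

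**Figure D2:**
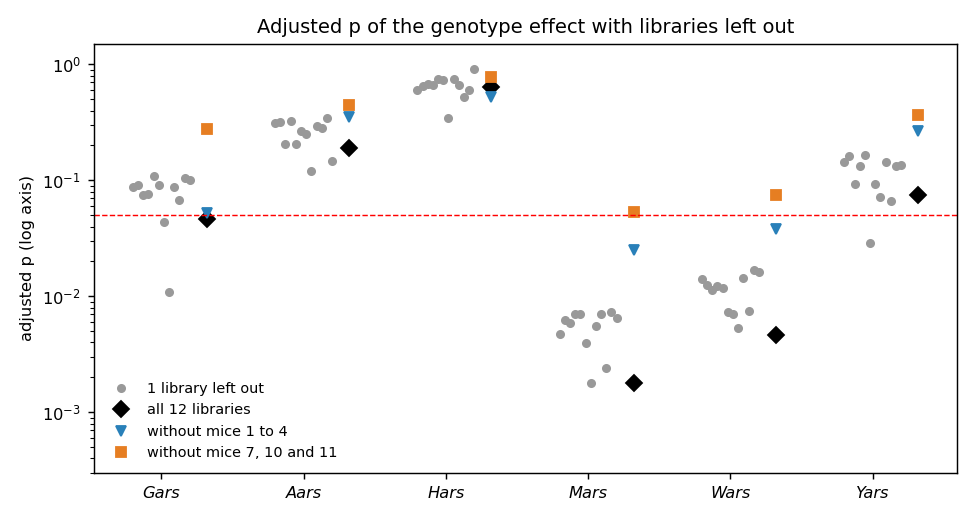
Adjusted p of the genotype effect (log axis) for each gene with all 12 libraries (black diamonds), with 1 library left out (grey), without mice 1 to 4 (blue) and without mice 7, 10 and 11 (orange). The dashed line marks 0.05, which Mars and Wars missed without mice 7, 10 and 11 and Gars missed in 10 of the 12 fits without 1 library.

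Markers of tissue next to the cord varied between libraries. The 14 skeletal muscle genes on the list, none of them at 0 in any library, summed to 109.5 to 4277 CPM in P278KY and 107.9 to 11330 CPM in WT mice, and the 4 highest libraries were those of mice 1 to 4. The 11 genes of sensory ganglion neurons summed to 55.8 to 144.2 CPM in P278KY and 82.0 to 152.3 CPM in WT mice, with up to 2 of them at 0 in a library and the highest sums in mice 10, 7 and 11. Prph, a neuronal intermediate filament gene, stands on this list and on that of motor neurons. The 10 genes of spinal cord neurons summed to 3263 to 3548 CPM in P278KY and 3118 to 3622 CPM in WT mice and so were present in every library. The 6 genes of oligodendrocyte myelin summed to 24420 to 30200 CPM in P278KY and 25960 to 35140 CPM in WT mice. The 9 motor neuron genes tested summed to 3636 to 3891 CPM in P278KY and 4360 to 6536 CPM in WT mice, and 7 of the 9 fell (median log2 change -0.59). Of the muscle genes none passed and all 14 had negative values (median -0.66), of the ganglion genes 2 fell and 1 rose (median -0.72), of the spinal cord neuron genes 1 rose (median 0.07), and of the myelin genes none passed (median -0.02). Among all tested genes 2.36% rose and 2.95% fell. Without mice 1 to 4, Mars and Wars passed (log2 change 0.22, adjusted p = 0.0252, and 0.21, adjusted p = 0.0384), and Gars did not (0.13, adjusted p = 0.0528), where 201 of 18463 genes (1.09%) were higher. Without mice 7, 10 and 11 none of the 6 passed, where 87 of 18147 genes (0.479%) were higher. The part of other cell types in the remaining differences was not tested.

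To ask whether the genes moved by unequal amounts, the ratio between 2 genes within a library, which does not depend on library scaling, was compared between the genotypes for all 15 pairs. Hars stood apart from the other 5: the ratio of each of them to Hars was higher in P278KY cord (exact two-sided permutation test, adjusted over the 15 pairs). The log2 ratio of Mars to Hars ranged from -0.61 to -0.52 in P278KY and from -1.0 to -0.65 in WT mice. For Wars to Hars it ranged from 0.58 to 0.69 in P278KY and from 0.18 to 0.50 in WT mice. Neither pair of ranges overlapped.

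The ratio to Hars differed by 0.25 (SE 0.05) for Mars, 0.24 (SE 0.05) for Wars, 0.17 (SE 0.04) for Gars and 0.12 (SE 0.02) for Aars. In each of these 4 cases every P278KY mouse lay above every WT mouse (exact permutation p = 0.00216, the smallest that 924 splits allow, adjusted p = 0.00812). The ratio of Yars to Hars differed by 0.19 (SE 0.05, adjusted p = 0.026, permutation test) with overlapping groups. The difference for Aars was thus the smallest of the 5 and had the smallest SE: its log2 ratio to Hars lay between 1.56 and 1.64 in P278KY mice and between 1.43 and 1.55 in WT mice. In the fit over all genes, Aars itself did not pass.

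Wars and Mars also moved more than Aars. The difference in log2 ratio was 0.12 for Wars over Aars (SE 0.04, adjusted p = 0.0271, permutation test) and 0.13 for Mars over Aars (SE 0.05, adjusted p = 0.0417), the second of which was lost in 9 of 12 repeats that left out 1 library. In all, 7 of 15 pairs passed. The other 8 did not, and their intervals show what size of difference these mice allow: -0.06 to 0.08 for Mars over Wars, -0.07 to 0.11 for Yars over Gars, -0.01 to 0.17 for Mars over Gars and -0.02 to 0.15 for Wars over Gars. Without mice 7, 10 and 11, 4 pairs passed, namely Mars, Wars, Gars and Aars over Hars (0.23, 0.23, 0.16 and 0.11). Without mice 1 to 4 none of the 15 passed. In that set of 4 against 4 mice the exact permutation p cannot fall below 0.0286, and the same 4 differences were 0.28, 0.27, 0.19 and 0.13.

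**Figure D3:**
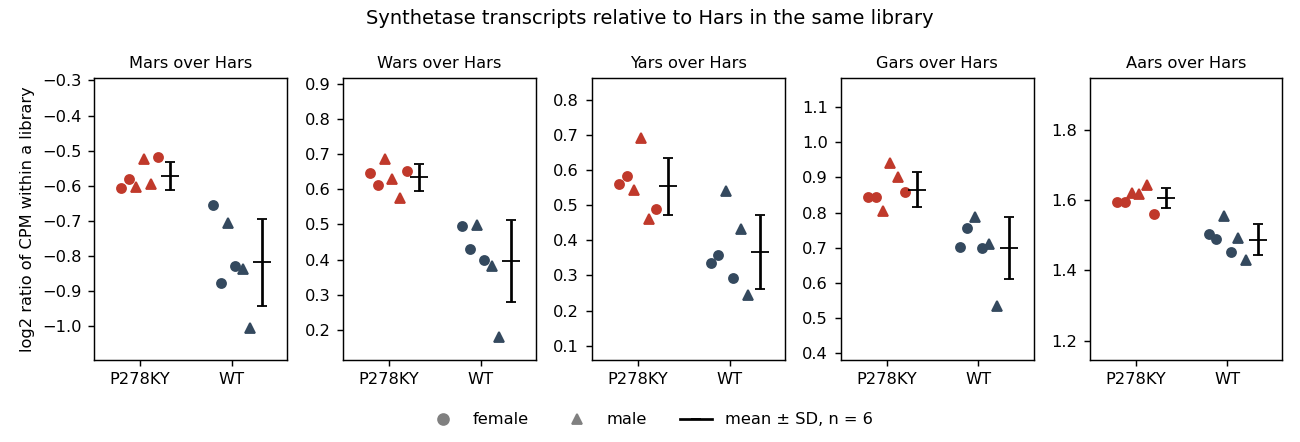
Log2 ratio of the CPM of each of 5 synthetase genes to that of Hars within a library, P278KY left of WT, with circles for females, triangles for males and bars for the mean ± SD (n = 6). The P278KY mice lie above all WT mice for Mars, Wars, Gars and Aars, and the groups overlap for Yars.

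Levels between genes were compared in TPM (transcripts per 1e+06 transcripts), which accounts for transcript length. In both genotypes Gars was the most abundant of the 6 on this scale, at 122.5 ± 3.84 TPM in P278KY and 106.5 ± 6.42 TPM in WT cord (SD, n = 6 each), above the next gene in every library. In CPM, which does not account for length, Aars was above Gars (means of 234.8 and 140.6 in P278KY, 222.6 and 128.7 in WT cord). The place of Aars in the TPM order thus depends on its estimated transcript length. Mars was the least abundant, at 46.1 ± 2.33 TPM in P278KY and 38.0 ± 2.54 TPM in WT cord, below the next gene in every library. The order of the 4 genes between them differed with genotype. In P278KY cord it was Yars (91.0 ± 5.23 TPM), Wars (89.4 ± 4.21), Aars (86.8 ± 3.05) and Hars (81.9 ± 2.23). There Yars was above Wars in 3 of 6 libraries, Wars above Aars in 5 of 6 and Aars above Hars in 6 of 6, and the neighbours Yars and Wars, and Wars and Aars, differed by less than their SD. In WT cord the order was Hars (80.0 ± 5.31 TPM), Yars (79.2 ± 6.34), Aars (78.7 ± 3.64) and Wars (74.3 ± 3.47). There Hars was above Yars in 3 of 6 libraries and Yars above Aars in 3 of 6, differences smaller than their SD, while Aars was above Wars in 6 of 6. Wars was thus above Hars in 6 of 6 P278KY libraries and in 1 of 6 WT libraries.

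The 6 genes together summed to 517.7 ± 15.9 TPM in P278KY and 456.7 ± 21.8 TPM in WT cord (SD, n = 6 each). The 20 cytosolic synthetases measured summed to 1472 ± 38.1 TPM in P278KY and 1312 ± 49.5 TPM in WT cord. The 6 genes made up 35.2 ± 0.68% of that sum in P278KY and 34.8 ± 0.45% in WT cord. Within the sum, Hars made up 5.57 ± 0.15% in P278KY and 6.10 ± 0.28% in WT cord, and Mars 3.13 ± 0.16% in P278KY and 2.90 ± 0.18% in WT cord. The TPM scale gave another balance of calls: in the log2(TPM + 1) fit with limma 1606 genes passed, 84.6% of them higher in P278KY, against 44.5% of the 956 in the count fit, with a median log2 change of 0.06 among all 17980 genes. On that scale 5 of the 6 genes rose (all but Hars), where 7.55% of all genes did, and the Hars change was 0.04.

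The authors' tables also give each gene's mean transcript length, weighted by the estimated share of its transcripts. The CPM levels do not use this readout, while the TPM levels are scaled by transcript length. Gars and Hars have 1 transcript in the tables. The mean length of Aars was 5442 ± 85.1 bases in P278KY and 5396 ± 110 bases in WT cord, and that of Yars 2584 ± 38.6 bases in P278KY and 2547 ± 74.4 bases in WT cord (SD, n = 6 each). The difference was 46.3 bases for Aars and 36.8 bases for Yars (exact two-sided permutation p = 0.429 and 0.327). For Wars it was 12.6 bases (exact permutation p = 0.565) and for Mars 5.17 bases (exact permutation p = 0.924). No shift in the mean transcript length of Aars, Yars, Wars or Mars was detectable at this number of mice. A change between transcripts of similar length would not alter this readout.

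Within each sex the changes were tested in a model with 4 group means. In females Mars was at 51.03, 51.89 and 53.16 CPM in P278KY and at 46.17, 44.39 and 44.15 CPM in WT mice (log2 change 0.21, SE 0.04, edgeR adjusted p = 0.0612). In males it was at 52.24, 52.53 and 50.96 CPM in P278KY and at 47.16, 43.99 and 44.14 CPM in WT mice (0.20, SE 0.04, edgeR adjusted p = 0.0459), a call that was lost in 10 of the 12 fits that left out 1 library. The groups did not overlap in either sex, though with 3 mice against 3 an exact permutation p cannot fall below 0.1. The share of all genes so separated within a sex was not counted. Mars in males was the single call of the 6 genes within a sex. Of all tested genes, 93 (0.517%) were higher and 186 (1.03%) lower in P278KY males, and 34 (0.189%) were higher and 69 (0.384%) lower in P278KY females.

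The log2 change of Wars was 0.19 in females (adjusted p = 0.124) and 0.21 in males (adjusted p = 0.0652), and that of Gars 0.12 in females (adjusted p = 0.35) and 0.13 in males (adjusted p = 0.231). The change of Gars in females was 0.06 without WT female 1 and 0.17 without WT female 2. For Yars the log2 change was 0.21 (SE 0.06) in females and 0.09 (SE 0.06) in males, a difference of 0.12 (SE 0.09). With 1 library left out, the Yars change in males ranged over 0.04 (without P278KY male 7) to 0.15 (without P278KY male 8), and the difference over 0.06 (without P278KY male 8) to 0.17 (without WT female 2). The difference was also 0.07 without WT female 1. In females Yars was at 114.5, 116.2 and 106.8 CPM in P278KY and at 91.77, 104.5 and 96.04 CPM in WT mice, without overlap. In males it was at 115.8, 121.9 and 105.8 CPM in P278KY and at 111.8, 106 and 104.8 CPM in WT mice, with overlap. No interaction of genotype and sex passed for the 6 genes (edgeR adjusted p = 0.9999 for each) or for any of the tested genes (0 by edgeR, with 665, or 3.7%, at an unadjusted p under 0.05). None of the 6 differed between males and females (adjusted p = 0.597 to 0.992).

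Of the other 14 cytosolic synthetases, 3 rose and none fell, with a median log2 change of 0.08. Over all tested genes 2.36% rose and 2.95% fell. Cars (cysteine) averaged 46.1 ± 2.10 CPM in P278KY and 34.9 ± 2.32 CPM in WT cord (log2 change 0.40, SE 0.04, adjusted p = 0.000217). Lars (leucine) averaged 49.3 ± 1.45 CPM in P278KY and 43.9 ± 1.49 CPM in WT cord (0.17, SE 0.03, adjusted p = 0.00801). Iars (isoleucine) averaged 110.6 ± 2.42 CPM in P278KY and 99.9 ± 3.75 CPM in WT cord (0.15, SE 0.03, adjusted p = 0.0135).

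By enzyme class, 5 of 10 class I genes rose (Cars, Mars, Wars, Lars and Iars; median 0.15) and 1 of 10 class II genes did, which is Gars (median 0.07). Eprs, whose protein joins a class I enzyme (glutamate) and a class II enzyme (proline), was counted in class I only. It did not pass (log2 change 0.07, SE 0.03). Among all tested genes 2.36% rose, and the difference between the classes was not tested. The 17 mitochondrial synthetases held no call (median -0.02), nor did the 3 genes of the scaffold of the multi-synthetase complex, Aimp1, Aimp2 and Eef1e1 (median 0.04). With 5.32% of all tested genes called, the lack of a call among so few genes does not set them apart. The lowest fitted values among cytosolic synthetases were those of Kars (lysine, -0.10, SE 0.04, adjusted p = 0.24) and Dars (aspartate, -0.06, SE 0.04, adjusted p = 0.394), with Hars the next, and none of these passed.

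**Figure D4:**
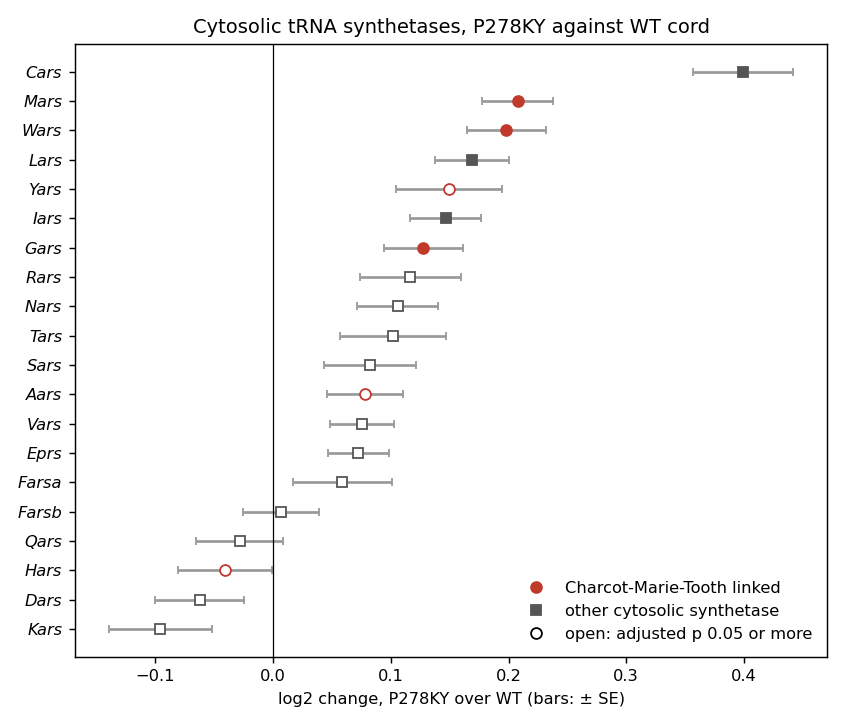
Log2 change (P278KY over WT, bars ± SE) of the 20 cytosolic synthetases, with the 6 Charcot-Marie-Tooth linked genes in red and filled symbols for an adjusted p under 0.05. Cars lies highest at 0.40, Mars and Wars follow near 0.20, and Hars lies among the lowest at -0.04.

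Because the P278KY allele sits in Gars on a mixed B6J;CAST background, genes around Gars were counted as well. Of 74 tested genes that start within 5 Mb of the start of Gars, 4 were called (5.41%), among them Gars. Over all tested genes 956 were called (5.32%), and on chromosome 6 beyond that window 52 of 816 were (6.37%). The other 3 were Adcyap1r1, the receptor of the neuropeptide PACAP (0.16, SE 0.02, adjusted p = 0.00277), Nap1l5 (0.14, SE 0.03, adjusted p = 0.0243) and Tax1bp1, an autophagy receptor (-0.09, SE 0.02, adjusted p = 0.0483). With Gars itself left out, 3 of 73 genes in its window were called (4.11%). In windows of the same size around the other 5 genes, each gene itself left out, 2.27% (Aars) to 7.92% (Mars) were called. Farther out on chromosome 6, at over 5 and up to 10 Mb from Gars, 4 of 47 genes were called (8.51%), all higher in P278KY, and at over 10 and up to 20 Mb 7 of 108 were (6.48%).

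**Figure D5:**
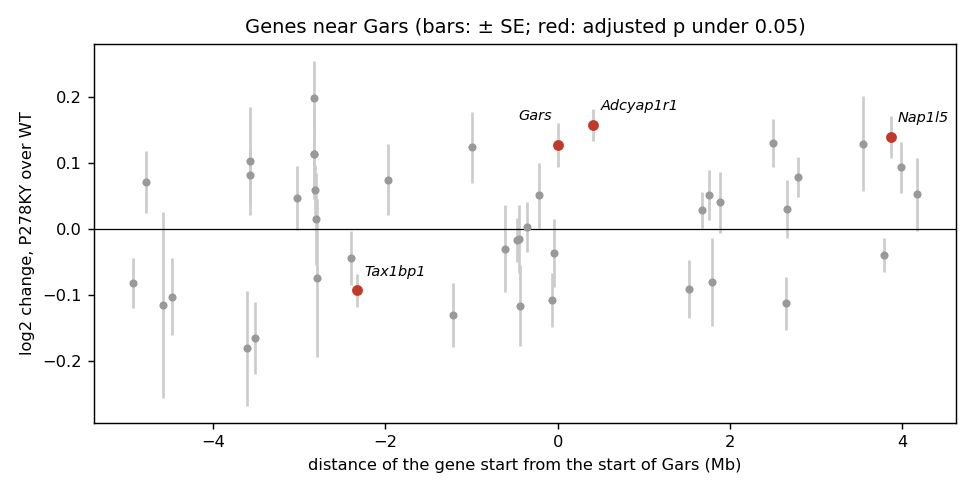
Log2 change (P278KY over WT, bars ± SE) against the distance of a gene's start from that of Gars, for the 44 tested genes within 5 Mb that averaged at least 10 CPM. Red marks an adjusted p under 0.05, held by Gars, Adcyap1r1 and Nap1l5 above 0 and by Tax1bp1 below 0.

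For each of the 6, the genes whose level varied most alike from mouse to mouse were taken as those of highest Pearson correlation over the 12 libraries, after subtraction of each group's mean and among 10649 genes of at least 10 CPM. They were Gdap1l1, Tmem55b and Zfp14 for Gars (r = 0.98 to 0.96), Lrrc8a, Pla2g6 and Nckipsd for Aars (0.96 each), and 9130011E15Rik and Ckmt1 for Hars (0.97 and 0.95). They were Sft2d2, 1700052N19Rik and Galnt18 for Mars (0.96 to 0.88), Edc4, Gpcpd1 and Setd1a for Wars (0.94 to 0.93), and Flot1, Foxj3 and Tbk1 for Yars (0.98 to 0.94). The best of so many genes over 12 libraries that share depth and tissue differences is a description only. No synthetase was among these genes, and none of them passed for genotype, with adjusted p-values of 0.0753 (Ckmt1) and above.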

How the data were processed

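Per the labels' protocols, stranded libraries of polyadenylated RNA were sequenced with 75 bp paired reads. Per the submitters' processing notes, the authors used Bowtie2 2.2.0 and RSEM 1.2.12. Which build and annotation they counted on is not given in the sources used here. Per the file headers, the deposited expected counts are per-gene read estimates of RSEM, with reads that match several genes shared among them. The deposited TPM values are scaled by transcript length and library, per the file headers, and the deposited FPKM values were not used.

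Libraries held 26982140 to 39339999 expected counts. Counts were rounded, filtered by filterByExpr over the 4 groups, TMM-scaled (trimmed mean of M values) and tested with edgeR's quasi-likelihood F test (robust) in a model of sex and genotype, with Benjamini-Hochberg adjustment over all 17980 genes. A model of 4 group means gave the changes within sexes and the interaction. Intervals of single genes are 95% intervals for the fitted change. For changes fitted with edgeR, the SE was derived from the log2 change and its F statistic. Intervals of pairs are 95% intervals by the t distribution for the difference in mean log2 ratio, with an SE from the variance of each genotype. Ratios and lengths were tested by exact two-sided permutation of the mice. Log2 CPM for likeness used a prior count of 2. The tools were edgeR 4.0.16, DESeq2 1.42.0 and limma 3.58.1 under R 4.3.3. For positions, 37607 of the 38924 gene identifiers were found in GENCODE M21 (GRCm38). The edgeR test in the model of sex and genotype was tried on simulated counts, and the permutation test on 1 set of made-up values. The other steps were not tried on simulated data.

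The genes and lists were chosen with earlier results of these data known. By rule, the other genes named are cytosolic synthetases or scaffold genes past the threshold, the 3 genes most like each of the 6 (1 of these is not reported here), and the genes called near Gars. Outside the rule, Ddit3, Hars2, Exosc6, Wdr25, 5033424D13Rik, Gm22079, C77080, Eprs, Kars, Dars, Tars and Prph were named after their values or positions were seen. So were the scaffold genes Aimp1, Aimp2 and Eef1e1. The labels do not state that the mice are independent litters. The tests treat the mice as independent, and shared litters could make the p-values too small.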

Additional observations from a re-analysis of the deposited data

How the results depend on the processing

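No paired analysis was possible because the labels do not say which mice were littermates. Instead of 956 genes, 1627 were called with the Wald test of DESeq2, 1467 with limma voom, 1606 and 1622 on log2(TPM + 1) and log2(TPM + 0.1), 557 without mice 1 to 4, 253 without mice 7, 10 and 11, and 542 to 1385 with 1 library left out. Of the 956, these held 932 (DESeq2), 951 (voom), 616 and 617 (TPM), 440 (without mice 1 to 4) and 228 (without mice 7, 10 and 11). The 6 cytosolic synthetases that rose became 13 on either TPM scale, 3 without mice 1 to 4, 1 without mice 7, 10 and 11, and 5 to 6 with 1 library left out. The 3 genes of the 6 that rose became 5 on either TPM scale, 0 without mice 7, 10 and 11 and 2 to 3 with 1 library left out. The 4 genes called near Gars became 7 (DESeq2), 8 (voom), 9 and 9 (TPM), 2 without a filter, 2 without mice 1 to 4, 1 without mice 7, 10 and 11, 1 with a term for mice 9 to 12, and 1 to 7 with 1 library left out.

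Gars missed the threshold without a filter (0.13, adjusted p = 0.0695), without mice 1 to 4 (0.13), without mice 7, 10 and 11 (0.11) and with a term for mice 9 to 12 (0.12, adjusted p = 0.0983), and ranged over 0.10 to 0.15 with 1 library left out. Mars (0.19) and Wars (0.19) missed it without mice 7, 10 and 11, and ranged over 0.20 to 0.22 and 0.17 to 0.21 with 1 library left out. Aars passed on both TPM scales (0.14 each, adjusted p = 0.0379 and 0.0377). Yars passed with DESeq2 (0.15, adjusted p = 0.026) and on the TPM scales (0.20 each, adjusted p = 0.0431 and 0.0425), and ranged over 0.12 to 0.18 with 1 library left out. Hars turned positive on the TPM scales (0.036 and 0.037), where the median of all genes was 0.06 and 0.07. The 7 pairs that passed became 6 on TPM, 4 without mice 7, 10 and 11, 0 without mice 1 to 4 and 5 to 8 with 1 library left out. Uncalled values near 0 changed sign: Yars over Gars was -0.0019 on TPM and -0.025 without mice 1 to 4, and Mars over Wars -0.0043 without mice 7, 10 and 11. With 1 library left out, Mars over Wars ranged over -0.0083 to 0.028, Hars in females over -0.056 to 0.025, and the Mars length difference over -28.1 to 26.6 bases. The difference between sexes then ranged over -0.072 to 0.040 for Gars, -0.0099 to 0.068 for Aars, -0.0035 to 0.10 for Hars, -0.029 to 0.025 for Mars, 0.061 to 0.166 for Yars and -0.057 to 0.033 for Wars. The causes of these changes were not tested. Each group of a sex and genotype holds 3 mice.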
